A study of Mus musculus with 28 samples.

Results

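Interferon-stimulated genes are the genes that a cell transcribes when interferon, a secreted antiviral cytokine, binds its receptor. A list of 39 such genes was followed here through the hippocampus of aged mice given human plasma or saline. The members were matched by symbol to an array table with 22256 distinct symbols. Of the 39, 37 had a row, and where a symbol had several the brightest on average was taken. Of these 37, 30 were among the 15781 genes tested. Dtx3l and Irgm1 were not analysed here, because no row carried either symbol or a synonym of it. The other 7, namely Mx1, Mx2, Oas1a, Trim30a, Gbp3, Igtp and Dhx58, had a mean log2 value under the limit for testing of 4.68, and their values are described without a test.

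The 28 arrays came from hippocampi of aged mice of the NSG strain, with a mean age of 14 months, and each animal had received 6 injections into a vein. The 4 groups of 7 arrays differed in what was injected: phosphate-buffered saline (PBS), human plasma from umbilical cord blood, human plasma from young donors, or human plasma from old donors. All 4 groups share the NSG genotype, a NOD background with the scid mutation of Prkdc and a null allele of Il2rg. As background, these mice lack mature T, B and natural killer cells but keep microglia and other myeloid cells. The labels do not say whether each array is a separate mouse, so the p-values may reflect technical spread alone, and with 7 arrays a group the precision is limited. Values are log2 intensities made by the authors with RMA, which corrects background, normalizes between arrays and summarises the probes of a row. They are on 1 scale within a gene, and levels of different genes are not set against each other.

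As background, type I interferon binds a receptor made of Ifnar1 and Ifnar2, whose kinases Jak1 and Tyk2 phosphorylate factors such as Stat2. With Irf9, Stat2 joins a complex that binds the interferon-stimulated response element (ISRE) in promoters, whereas type II interferon acts through the GAS element. The induced genes restrict viruses, sense their nucleic acids, and either extend the response, as Irf7 does, or damp it, as Usp18 does. In the brain, microglia, endothelium and choroid plexus epithelium are known to respond to interferon.

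The promoters of 4 members are shown because they carry the ISRE letters while the levels of the genes divided on 1 array described below: Isg15 and Ifit1 were far above every other array there, and Ifit3 and Oas3 were not. Each sequence is the 250 bases before the annotated start, from RefSeq on GRCm38.p6, read 5′ to 3′ on the strand of the gene. This assembly is of C57BL/6J, the mice are NSG, and the array files name no build. Capitals mark the ISRE letters, here GAAA, any 2 bases and GAAA again, searched on both strands, so that a match on the other strand reads TTTC, any 2 bases and TTTC. Isg15 lies on the minus strand (chr4:156200819-156201068), Ifit1 on the plus strand (chr19:34640639-34640888), Ifit3 on the plus strand (chr19:34583279-34583528) and Oas3 on the minus strand (chr5:120777660-120777909).
Isg15: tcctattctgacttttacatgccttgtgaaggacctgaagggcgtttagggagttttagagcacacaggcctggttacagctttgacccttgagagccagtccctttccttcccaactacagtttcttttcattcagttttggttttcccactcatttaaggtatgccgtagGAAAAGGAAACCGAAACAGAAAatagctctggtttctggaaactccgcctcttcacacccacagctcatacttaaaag
Ifit1: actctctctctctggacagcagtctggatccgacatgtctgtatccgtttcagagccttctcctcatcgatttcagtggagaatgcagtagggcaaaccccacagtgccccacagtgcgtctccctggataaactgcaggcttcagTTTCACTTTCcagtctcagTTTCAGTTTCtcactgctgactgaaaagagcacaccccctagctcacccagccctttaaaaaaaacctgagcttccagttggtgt
Ifit3: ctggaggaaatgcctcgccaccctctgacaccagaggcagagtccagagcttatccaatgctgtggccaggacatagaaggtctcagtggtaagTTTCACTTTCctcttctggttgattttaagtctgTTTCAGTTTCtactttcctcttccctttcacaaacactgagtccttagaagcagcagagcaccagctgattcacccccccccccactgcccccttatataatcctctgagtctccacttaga
Oas3: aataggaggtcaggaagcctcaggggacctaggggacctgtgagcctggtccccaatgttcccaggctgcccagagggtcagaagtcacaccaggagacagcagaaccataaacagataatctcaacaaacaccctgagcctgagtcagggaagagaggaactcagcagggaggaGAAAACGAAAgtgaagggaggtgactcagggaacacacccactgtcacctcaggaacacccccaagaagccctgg

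In Isg15 the matches overlap and begin 78, 72 and 66 bases before the start. In Ifit1 they begin 104 and 85 bases before it, in Ifit3 156 and 122, and in Oas3 75. Over a window of 250 bases before to 50 after the start, 29 of the 39 members had a RefSeq promoter, and 16 of these held the ISRE letters (55.2%), against 1079 of 27025 genes (3.99%). The GAS letters TTCNNNGAA, which some windows hold beside the ISRE letters, were in 7 of the 29 (24.1%), against 9.55% of all genes. Of the 27 members with a promoter and a row, 24 were above every other array on PBS replicate 4, and 12 of these held the ISRE letters. The other 3, Ifit3, Oas3 and Oas1a, all held them. A match to these letters is a description and not a binding site.

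A single control array stood above the others in most of the list. PBS replicate 4 was above all 27 other arrays in 28 of the 30 members tested, where 480 of all 15781 genes were (3.04%). It was more than 0.5 above the next array in 17 members, against 29 of all genes (0.184%), and more than 1 above it in 10 members, against 15 of all genes (0.0951%). Those 10 were Irf7, Ifi44, Oasl2, Ifit1, Usp18, Rtp4, Isg15, Ifitm3, Irf9 and Lgals3bp. The median member lay 1.01 above the median of the other 6 PBS arrays, against -0.01 over all genes tested. In bulk tissue, more cells of a type and more RNA per cell cannot be told apart. The array was singled out with its interferon-stimulated levels known, so these counts are descriptions with no test.

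**Figure D1:**
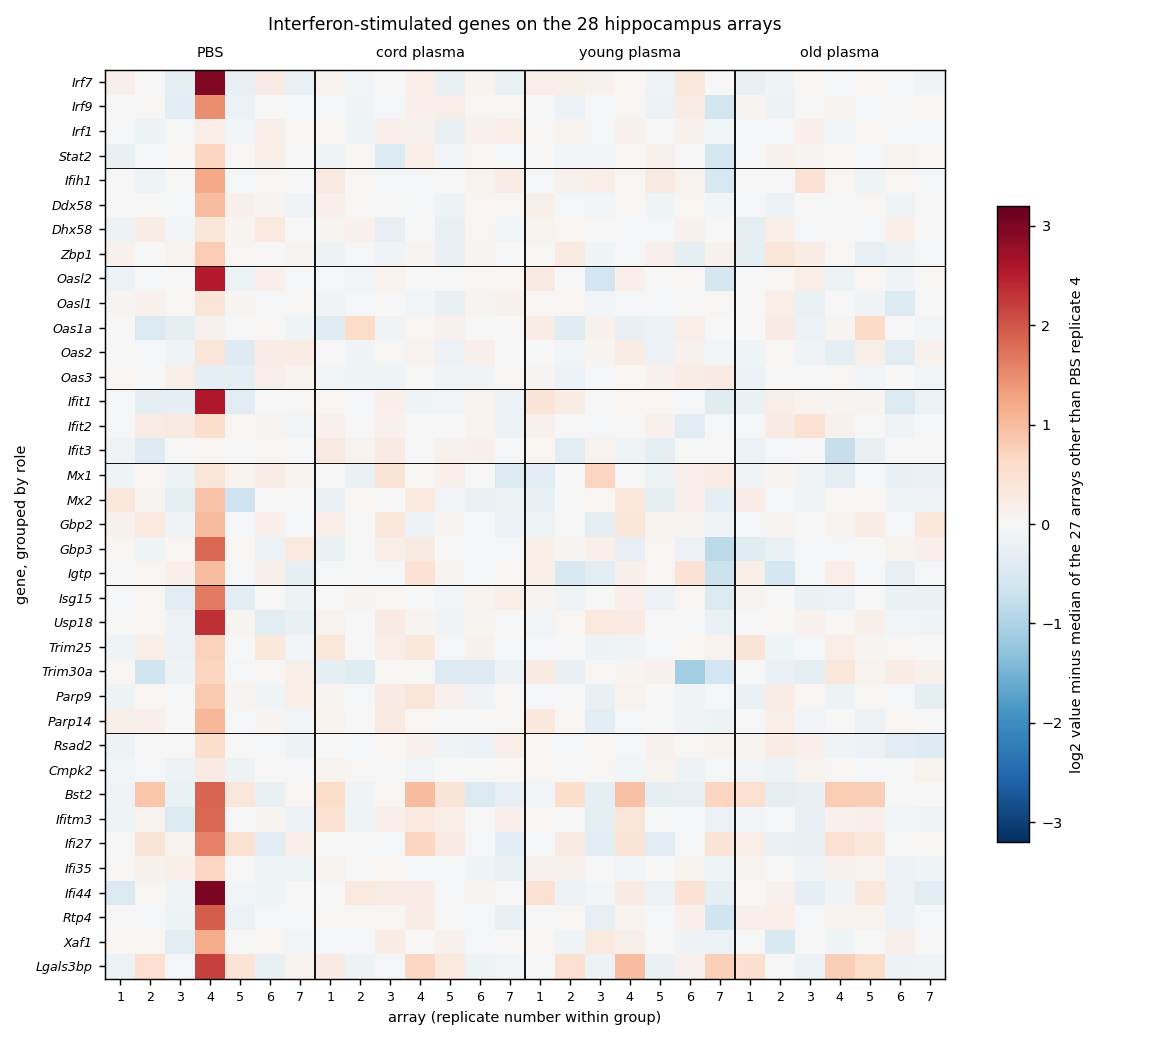
Log2 value of the 37 members with a row (rows, in order of role) on each of the 28 arrays (columns, by group and replicate number), as the difference from the member's median over the 27 arrays other than PBS replicate 4. PBS replicate 4 is the one column that is red through nearly the whole list, and Ifit3 and Oas3 are not raised there.

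No other array came near it in these genes. The median deviation of the tested members from their own median over the 27 other arrays was 1.04 on PBS replicate 4, and ran from -0.09 on young plasma replicate 7 to 0.09 on cord plasma replicate 4 among the rest. Across the other 6 PBS arrays it ran from -0.07 to 0.04, from -0.03 to 0.09 with cord plasma, from -0.09 to 0.07 with young plasma and from -0.08 to 0.04 with old plasma. When PBS replicate 4 was set aside, no array was highest in more than 5 of the 30 members. Young plasma replicate 7 was the lowest array in 5 of the 30, but it was also the lowest in 15% of all genes tested. The median of named rows on PBS replicate 4 was 5.795, against 5.736 to 5.793 on the others, so it was narrowly the highest. Its mean correlation with the other arrays across all genes tested was 0.989, against 0.980 to 0.992.

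The transcription factors of the response were the first class. Irf7, which amplifies interferon production, stood at 8.67 on PBS replicate 4 and between 5.40 and 6.04 on the other 27 arrays, an 8.41-fold excess over the median of the other PBS arrays. Irf9 stood at 7.77 on PBS replicate 4, and between 5.93 and 6.31 on the other 6 PBS arrays (median 6.26). It spanned 6.16 to 6.47 with cord plasma (median 6.32), 5.69 to 6.53 with young plasma (median 6.24) and 6.13 to 6.38 with old plasma (median 6.29). Irf9, the DNA-binding subunit of the complex that holds Stat2, was thus 2.85-fold above the other PBS arrays there, and the remaining arrays of all groups overlapped. The level of Stat2 was 7.67 on PBS replicate 4 and ran from 6.73 to 7.16 on the other 6 PBS arrays, with a median of 6.99. The 7 cord plasma arrays lay between 6.51 and 7.18 (median 6.90), the young plasma arrays between 6.41 and 7.12 (median 6.96), and the old plasma arrays between 6.94 and 7.11 (median 7.02). Stat2, its partner, was 1.61-fold above the other PBS arrays, and the lowest of all its values was on young plasma replicate 7. Irf1, a factor that responds to type I and type II interferon, was 5.56 against at most 5.55 elsewhere. The array table holds a second, dimmer row for Irf1, which read 3.80 on PBS replicate 4 and 3.53 to 4.41 elsewhere, so the rows of this gene disagree.

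The sensors of foreign nucleic acid include the RNA helicases Ifih1 (MDA5) and Ddx58 (RIG-I). On the 6 other PBS arrays Ifih1 ran from 5.63 to 5.80 with a median of 5.76, and on PBS replicate 4 it was 6.99. Cord plasma arrays ran from 5.70 to 6.05 with a median of 5.81, young plasma arrays from 5.25 to 6.05 with 5.89, and old plasma arrays from 5.63 to 6.23 with 5.77. Its excess on that array was 2.34-fold, and old plasma replicate 3 was the next highest array. Ddx58 stood at 6.62 on PBS replicate 4, and between 5.53 and 5.80 on the other 6 PBS arrays (median 5.62). It spanned 5.48 to 5.80 with cord plasma (median 5.68), 5.51 to 5.82 with young plasma (median 5.57) and 5.46 to 5.67 with old plasma (median 5.64). For Ddx58 every other array was within 5.46 to 5.82. Zbp1, a sensor of Z-form nucleic acid that can trigger cell death, read 5.72 against 4.62 to 5.32 elsewhere. Dhx58 (LGP2), a helicase that regulates the other two, was dim and untested, at 4.93 against 4.27 to 4.86.

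The oligoadenylate synthetase family was uneven. These enzymes make short adenylate chains that switch on the nuclease RNase L, and Oasl1 and Oasl2 are their relatives. The level of Oasl2 was 7.76 on PBS replicate 4 and ran from 5.01 to 5.37 on the other 6 PBS arrays, with a median of 5.16. The 7 cord plasma arrays lay between 5.13 and 5.33 (median 5.21), the young plasma arrays between 4.59 and 5.50 (median 5.23), and the old plasma arrays between 5.05 and 5.41 (median 5.23). Oasl2 was 6.05-fold above the other PBS arrays on PBS replicate 4. It is given by group because of its mean, which was above that of Oas2 only with that array counted. On the 6 other PBS arrays Oas3 ran from 5.10 to 5.60 with a median of 5.48, and on PBS replicate 4 it was 5.12. Cord plasma arrays ran from 5.26 to 5.47 with a median of 5.29, young plasma arrays from 5.21 to 5.65 with 5.49, and old plasma arrays from 5.20 to 5.45 with 5.39. Oas3 thus ranked 27 of 28 on PBS replicate 4, opposite to Oasl2. Oas2 read 5.61 against 4.82 to 5.47 elsewhere, and Oasl1 5.57 against 4.75 to 5.39. Oas1a, dim and untested, lay inside the range of the other arrays at 3.84 against 3.24 to 4.31. The files do not say whether its row separates Oas1a from close paralogs such as Oas1g.

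The IFIT proteins bind foreign RNA and block its translation, and they divided as well. Ifit1 stood at 8.21 on PBS replicate 4, and between 5.28 and 5.67 on the other 6 PBS arrays (median 5.47). It spanned 5.46 to 5.80 with cord plasma (median 5.57), 5.26 to 6.07 with young plasma (median 5.70) and 5.19 to 5.83 with old plasma (median 5.72). Ifit1 was 6.67-fold above the other PBS arrays on PBS replicate 4, with no other array above 6.07. The level of Ifit3 was 6.82 on PBS replicate 4 and ran from 6.33 to 6.79 on the other 6 PBS arrays, with a median of 6.74. The 7 cord plasma arrays lay between 6.71 and 7.03 (median 6.90), the young plasma arrays between 6.42 and 6.86 (median 6.76), and the old plasma arrays between 6.01 and 6.77 (median 6.72). Ifit3, the partner that stabilises the IFIT complex in human cells, therefore lay within the range of the other arrays on PBS replicate 4, where it ranked 7 of 28. Ifit2 read 5.59 there, against 4.68 to 5.51. Whether the Ifit3 row separates this gene from its near-identical copy Ifit3b is not given in the files.

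The interferon-induced GTPases attack the compartments of intracellular pathogens and viral capsids. On the 6 other PBS arrays Gbp2 ran from 5.33 to 5.76 with a median of 5.49, and on PBS replicate 4 it was 6.44. Cord plasma arrays ran from 5.24 to 5.81 with a median of 5.42, young plasma arrays from 5.14 to 5.83 with 5.44, and old plasma arrays from 5.37 to 5.77 with 5.53. Gbp2, a guanylate-binding protein, was 1.93-fold above the other PBS arrays on PBS replicate 4. Igtp stood at 5.48 on PBS replicate 4, and between 4.19 and 4.67 on the other 6 PBS arrays (median 4.53). It spanned 4.45 to 4.97 with cord plasma (median 4.53), 3.82 to 4.96 with young plasma (median 4.55) and 3.94 to 4.71 with old plasma (median 4.46). Igtp (Irgm3) was untested and was 1.94-fold above their median. Gbp3 read 6.26 against 3.57 to 4.74 and Mx2 5.12 against 3.53 to 4.55. Mx1, the classic inhibitor of influenza virus in mice, stayed dim at 3.78 against 2.94 to 4.09.

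**Figure D2:**
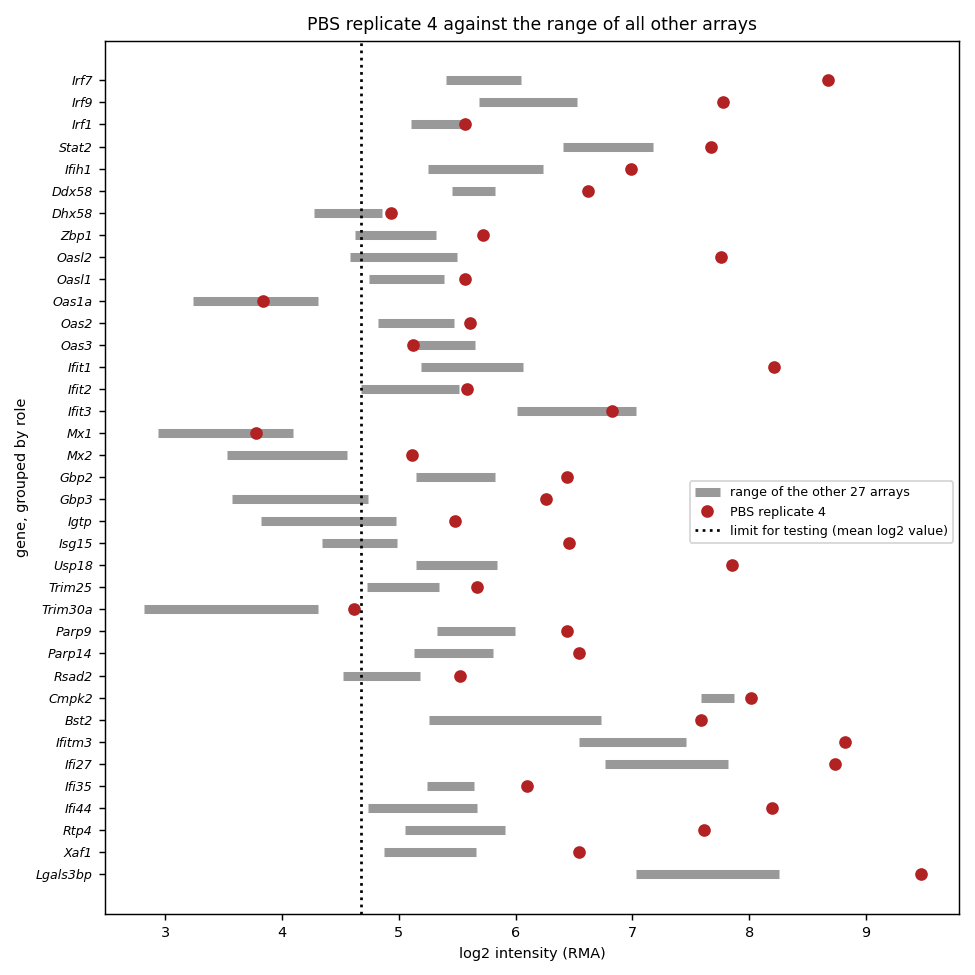
Log2 intensity of each of the 37 members on PBS replicate 4 (red points) and the lowest to highest value on the other 27 arrays (grey bars); the dotted line is the mean level needed for testing, 4.68. The red point lies to the right of the bar except for Oas1a, Oas3, Ifit3 and Mx1.

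Genes of the ISG15 pathway and of ubiquitin and ADP-ribose tagging followed. Isg15, the ubiquitin-like protein itself, read 6.45 on PBS replicate 4 and 4.34 to 4.98 elsewhere, 1.77 above the median of the other PBS arrays. The level of Usp18 was 7.85 on PBS replicate 4 and ran from 5.15 to 5.60 on the other 6 PBS arrays, with a median of 5.42. The 7 cord plasma arrays lay between 5.41 and 5.78 (median 5.60), the young plasma arrays between 5.32 and 5.84 (median 5.51), and the old plasma arrays between 5.40 and 5.69 (median 5.56). Usp18, the protease that removes Isg15 and damps receptor signalling, was 5.41-fold above the other PBS arrays. On the 6 other PBS arrays Parp9 ran from 5.45 to 5.79 with a median of 5.65, and on PBS replicate 4 it was 6.44. Cord plasma arrays ran from 5.49 to 6.00 with a median of 5.70, young plasma arrays from 5.38 to 5.73 with 5.56, and old plasma arrays from 5.33 to 5.86 with 5.57. Parp9, a PARP-family protein that partners Dtx3l, was 0.79 above their median. The ADP-ribosyltransferase Parp14 read 6.55 against 5.13 to 5.81 elsewhere. The ubiquitin ligase Trim25, which activates Ddx58 signalling, read 5.67 against 4.73 to 5.34, and the dim Trim30a, of the same family, read 4.62 against 2.82 to 4.31.

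The remaining effectors held the largest excess of the 37 members. Ifi44, a gene of little-known function, read 8.19 against 4.73 to 5.67, an 8.65-fold excess over the other PBS arrays. Lgals3bp stood at 9.47 on PBS replicate 4, and between 7.03 and 7.81 on the other 6 PBS arrays (median 7.30). It spanned 7.10 to 7.92 with cord plasma (median 7.24), 7.05 to 8.25 with young plasma (median 7.41) and 7.07 to 8.05 with old plasma (median 7.25). Lgals3bp, a secreted galectin-binding glycoprotein, was 4.48-fold above the other PBS arrays, and its second row read 6.73 against 5.76 to 6.61. The level of Cmpk2 was 8.02 on PBS replicate 4 and ran from 7.58 to 7.76 on the other 6 PBS arrays, with a median of 7.69. The 7 cord plasma arrays lay between 7.67 and 7.87 (median 7.77), the young plasma arrays between 7.59 and 7.86 (median 7.76), and the old plasma arrays between 7.59 and 7.86 (median 7.75). For Cmpk2, a mitochondrial nucleotide kinase, the excess was 0.33, though no other array reached it. The membrane protein Ifitm3, which blocks viral entry, read 8.82 against 6.54 to 7.45. Bst2 (tetherin), which holds budding virus at the cell surface, read 7.58 against 5.26 to 6.73. Rsad2 (viperin), which makes a chain-terminating nucleotide, read 5.52 against 4.53 to 5.18. All of these lay above every other array. So did the rest of the class: the receptor chaperone Rtp4 read 7.61 against 5.06 to 5.91, the apoptosis factor Xaf1 6.55 against 4.87 to 5.66, Ifi27 8.74 against 6.76 to 7.82 and Ifi35 6.10 against 5.24 to 5.64. By role, over the members with a row, the median excess over the other PBS arrays was 1.69 in this class, 1.10 in the transcription factors, 0.95 in the GTPases, 0.90 in the ISG15 and tagging genes, 0.86 in the sensors, 0.48 in the IFIT genes and 0.33 in the oligoadenylate synthetases.

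Outside the 39, further interferon lists held most genes of the 30 largest gaps on PBS replicate 4, but not of the 60 largest. Of the 10 genes with the largest gap above every other array, 8 were members and the other 2 stood on the further interferon lists. Of the 30 with the largest gap, 18 were members and 9 were on those lists. Of the 60 with the largest gap, 23 were members, 16 were on those lists and 21 were neither. The endothelial markers Kdr and Cdh5 were among these 21. Sp100 read 6.54 against 3.99 to 5.10 and the antigen-presentation gene B2m 10.82 against 9.62 to 10.09. Others among the 30 largest gaps were Gbp7 and Slfn2, and also Rnf213 and Lcn2, which were not on those lists. Of 40 further interferon-stimulated genes tested, 20 were above every other array there, as were 5 of 10 genes of type II interferon and antigen presentation. Over all genes tested, 480 of 15781 were (3.04%). The further lists were chosen with earlier results of these data known, so all counts of this paragraph are descriptions. Of the interferon genes themselves, 1 of 9 tested was above every other array, namely Ifnz by 0.01. Ifng read 5.18 within 4.77 to 5.50, and the dim Ifnb1 read 3.13 within 2.86 to 3.62. Signal over background is not stated, so these rows cannot show whether the interferon genes were detected. Rows of the Ifna family are near-identical in sequence and may share probes. Of the receptor genes, Ifnar1 read 8.51 against at most 8.45, and Ifngr1 was above every other array by 0.07. None of 7 negative regulators was, and 1 of 15 upstream sensors and adaptors was.

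Markers of cell types were read on the same arrays. Over all genes tested, 480 of 15781 (3.04%) were above every other array on PBS replicate 4. Of 6 endothelial markers, 3 were above every other array on PBS replicate 4, namely Pecam1, Cdh5 and Kdr. The mean of the 6 was 7.89 there, against 7.05 to 7.57 on the other PBS arrays, 7.03 to 7.76 with cord plasma, 6.97 to 7.65 with young plasma and 7.12 to 7.81 with old plasma. Among 8 neutrophil and monocyte markers 2 were above every other array, Lcn2 at 6.86 against at most 5.80 and Ly6c2 at 7.77 against at most 7.24. S100a8 was within the range of the others at 3.56, and the mean of that list, 4.74, was within the 4.21 to 4.78 of the other PBS arrays. Of 10 lymphocyte and plasmacytoid markers 2 were, Ptprc and the member Bst2, while Cd3e had its lowest value there at 4.02. Of 8 microglial markers 1 was above every other array, and 0 of 6 astrocyte, 6 oligodendrocyte, 6 choroid plexus and 7 hippocampal neuron markers. The neuron markers had a mean of 8.88 on PBS replicate 4 and 8.70 to 9.14 elsewhere, so that markers of the labelled tissue were bright on all arrays. The part of the endothelial and myeloid markers in the result was not tested.

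Each plasma was then compared with PBS, which asks whether human plasma altered these genes in the aged hippocampus. With all 28 arrays, limma called 0 of the 30 members at an adjusted p under 0.05 with cord plasma, young plasma or old plasma, as it called 0% of all genes tested in each of these comparisons. At an unadjusted p under 0.05, 0 members were called with cord plasma (8.74% of all genes), 0 with young plasma (11.2%) and 1 with old plasma (10.8%). That member was Oasl1, with a difference of -0.18 (SE 0.07). Most differences were negative: 26 of 30 with cord plasma, where 46.7% of all genes were, 26 with young plasma (50.8%) and 29 with old plasma (47.5%). The median member difference was -0.13 with cord plasma, -0.17 with young plasma and -0.17 with old plasma.

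Without PBS replicate 4 most differences were no longer negative. The array was left out with its high values in the members known. Its removal lowered the PBS means of most members, so the counts of signs that follow are descriptions. With cord plasma 22 members then lay above 0 (53.1% of all genes did) and 8 below, with a median of 0.07. With young plasma 17 lay above 0 (49.2%) with a median of 0.02, and with old plasma 17 (52.9%) with a median of 0.01. The 3 comparisons share the PBS arrays, so they are not independent of each other. In limma 0 members had an adjusted p under 0.05 in any of the 3, against 0%, 0% and 0.00634% of all genes. The array also widened the error: the median SE of a member's difference from PBS was 0.12 with it and 0.09 without it.

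**Figure D3:**
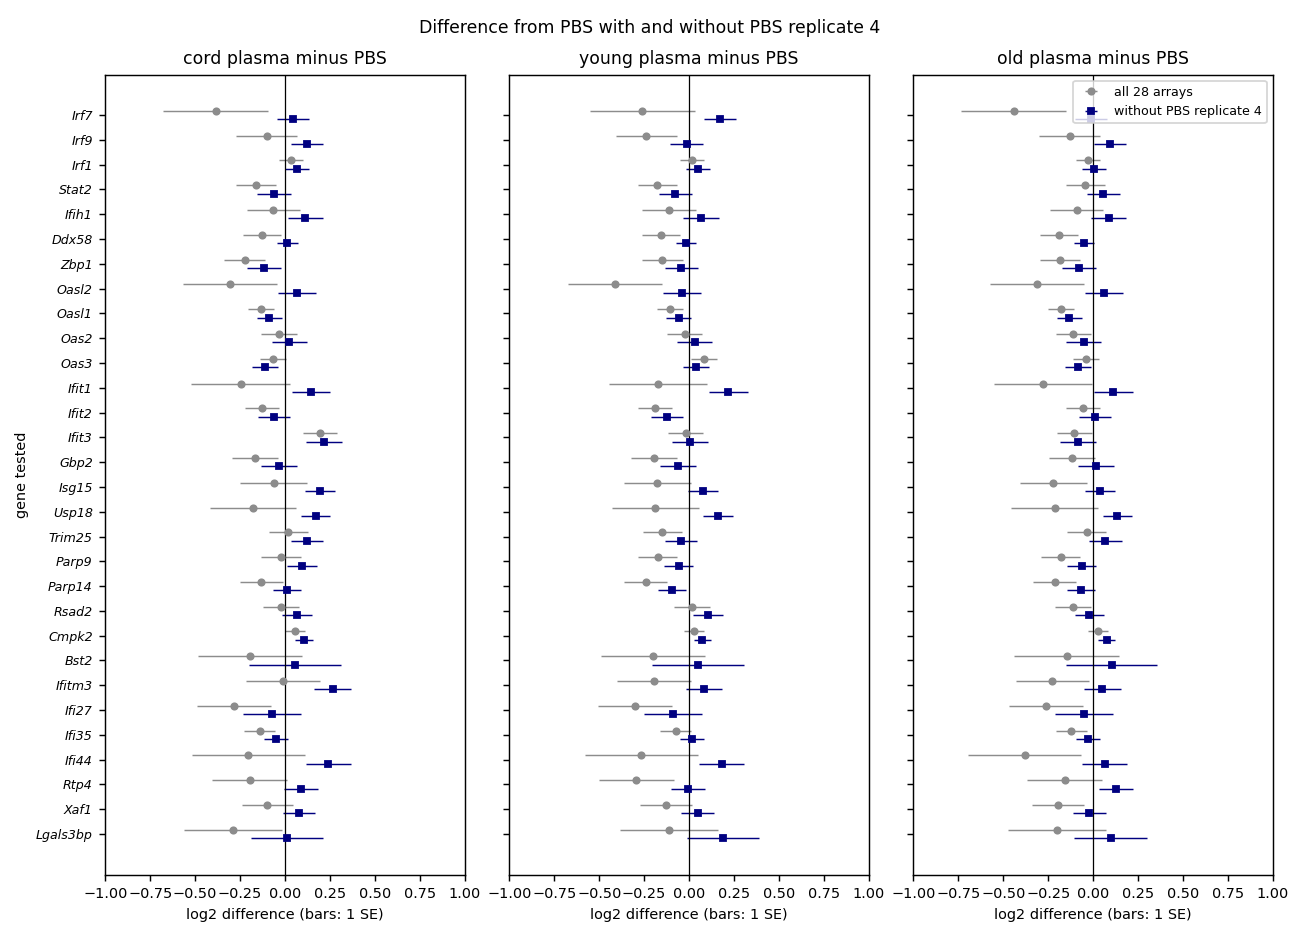
Log2 difference of cord, young and old plasma from PBS for the 30 members tested, over all 28 arrays (grey circles) and without PBS replicate 4 (blue squares), with bars of 1 SE from limma. Most grey points lie left of 0, and the blue points lie on both sides of it.

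Irf7 shows the shift. With all arrays its difference from PBS was -0.39 (SE 0.29) with cord plasma, -0.26 (SE 0.29) with young plasma and -0.44 (SE 0.29) with old plasma. Without PBS replicate 4 these were 0.04, 0.17 and -0.01, each with an SE of 0.09. Ifit1 moved from -0.25 (SE 0.27) to 0.14 (SE 0.11) with cord plasma, and Oasl2 from -0.31 (SE 0.26) to 0.07 (SE 0.11). Ifit3, within range on PBS replicate 4, differed by 0.19 (SE 0.10) with cord plasma when the array was kept and by 0.22 (SE 0.10) without it.

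Without that array, 5 of the 30 members were higher with cord plasma at an unadjusted p under 0.05, against 4.18% of all genes tested. At that p 0 were lower, against 3.26%, and with all 28 arrays 0 were higher, against 4.96%. The array was left out with its high values in the members known, and this lowered the PBS means of these 5 genes. The share of all genes was not selected in this way, so the count is a description. Ifitm3 averaged 7.14 ± 0.20 on the cord plasma arrays (SD, n = 7), against 6.88 ± 0.20 on the PBS arrays (SD, n = 6), and differed by 0.26 (SE 0.10). Isg15 was at 4.85 ± 0.09 (SD, n = 7) and 4.65 ± 0.17 (SD, n = 6), a difference of 0.19 (SE 0.08). The groups overlapped for both genes. The other 3 were Ifit3 at 0.22 (SE 0.10), Usp18 at 0.17 (SE 0.08) and Cmpk2 at 0.11 (SE 0.05). None of the 5 passed adjustment over all genes, and the smallest adjusted p of a member in limma was 0.579, for Ifitm3. With young plasma the smallest unadjusted p in limma was 0.0538, for Ifit1 at 0.22 (SE 0.11), and with old plasma 0 members were under 0.05, against 9.83% and 9.47% of all genes.

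When the 3 plasma groups were averaged and set against PBS, limma called 0 members at an adjusted p under 0.05 (0.019% of all genes) and 1 at an unadjusted p under 0.05 (12.4%), again Oasl1, at -0.14 (SE 0.06). Of the 30 differences, 27 were below 0 (48.7% of all genes), with a median of -0.15. Without PBS replicate 4, 11 were below 0 (49% of all genes), the median was 0.04, and 2 members had an unadjusted p under 0.05 (10.2%): Usp18 at 0.16 (SE 0.07) and Cmpk2 at 0.09 (SE 0.04). Neither passed adjustment. In the authors' deposited table, whose p-values are not adjusted, 1 of the 37 members had a p under 0.05 for cord plasma (Ifit3, 0.0282), 0 for young plasma, 1 for old plasma (Mx1, 0.0256) and 1 across the 4 groups (Ifit3, 0.0461). Over all symbols of the authors' deposited table, taking the row with the highest mean for each, 9.23%, 8.11%, 10.8% and 9.55% were under 0.05 in the same columns.

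The plasma groups were also set against each other, which asks whether the age of the donors mattered. PBS replicate 4 enters these only through the shared spread. In limma 0 of the 30 members passed adjustment for cord against old plasma (0% of all genes), young against old plasma (0.00634%) or cord against young plasma (0%). The median differences were 0.03, 0.03 and 0.03, and 20, 18 and 21 of the members lay above 0, against 49.7%, 44.5% and 53.5% of all genes. At an unadjusted p under 0.05, 1 member was called for cord against old plasma (4.2% of all genes), 0 for young against old (6.53%) and 1 for cord against young (7.22%).

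Both of those calls were Ifit3. Its level was 6.88 ± 0.12 (SD, n = 7) with cord plasma, 6.67 ± 0.17 with young plasma and 6.58 ± 0.27 with old plasma. The difference of cord from old plasma was 0.30 (SE 0.10), with an unadjusted p of 0.00434 and an adjusted p of 0.999 in limma, and that of cord from young plasma was 0.21 (SE 0.10). Of the 4 group means cord plasma was the highest and old plasma the lowest, with PBS and young plasma between them and not different beyond their spread, and the groups overlapped. Old plasma replicate 4, at 6.01, was the lowest of the 28 arrays, and without it the difference of cord from old plasma was 0.21. Without PBS replicate 4, 2 members had an unadjusted p under 0.05 for cord against old plasma, against 4.16% of all genes: Ifit3 and Ifitm3 (0.21, SE 0.10). For young against old plasma 1 did, against 6.43%, which was Irf7 (0.18, SE 0.09). For cord against young plasma 2 did, against 7.04%: Ifit3, higher, and Oas3, lower (-0.15). None passed adjustment.

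**Figure D4:**
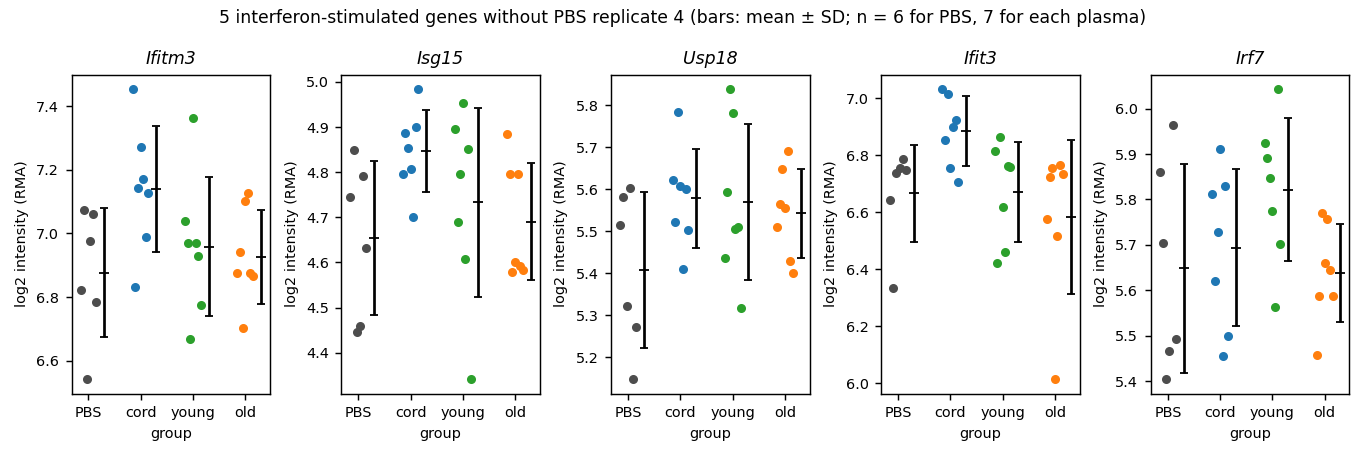
Log2 intensity of Ifitm3, Isg15, Usp18, Ifit3 and Irf7 on the 27 arrays other than PBS replicate 4 (points, 1 per array), with the mean and SD of each group (bars). The groups overlap in all 5 genes, and the largest separation is in Ifit3, where cord plasma arrays run from 6.71 to 7.03.

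The rest of the pathway was tested in the same fit. Of 9 interferon genes, 11 genes of the receptors and their JAK-STAT kinases and factors, 7 negative regulators, 15 upstream sensors and adaptors, 40 further interferon-stimulated genes and 10 genes of type II interferon and antigen presentation, limma called 0 at an adjusted p under 0.05 for cord, young or old plasma against PBS, with or without PBS replicate 4. Of all genes tested, 0% were called in each of these comparisons with all 28 arrays. Without PBS replicate 4 the shares were 0%, 0% and 0.00634% for cord, young and old plasma. Without that array, the upstream receptor Tlr4 had a difference of -0.28 (SE 0.08) with young plasma. With cord plasma, the death ligand Tnfsf10 had a difference of 0.40 (SE 0.12) and the interferon gene Ifna4 one of -0.39 (SE 0.12). Tlr4, Tnfsf10 and Ifna4 are picked from these lists and did not pass adjustment, and rows of the Ifna family may share probes. At an unadjusted p under 0.05, without that array, cord plasma had 4 of the 40 further interferon-stimulated genes higher and 0 lower, against 4.18% and 3.26% of all genes. Young plasma had 2 higher and 2 lower, against 5.24% and 4.59%, and old plasma 3 higher and 2 lower, against 5.68% and 3.79%. These counts leave out an array known to be the highest in 20 of the 40, so they are descriptions too.

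Among the other 27 arrays, Bst2, Lgals3bp and Ifi27 had the largest SDs of the tested members (0.47, 0.38 and 0.29). Their levels differed between arrays low and high in choroid plexus markers. The choroid plexus is the secretory epithelium beside the hippocampus. The mean of its 6 markers fell into separate clusters, with 15 arrays at 5.94 to 6.82 and 13 at 7.67 to 8.66, a division at 7 chosen after the values were seen. The upper cluster held 4 PBS arrays, PBS replicate 4 among them at 8.09, and 3 arrays of each plasma. Bst2 ran from 5.26 to 5.76 on the 15 low arrays and from 5.78 to 6.73 on the 12 high arrays without PBS replicate 4, with no overlap. Lgals3bp ran from 7.03 to 7.41 and from 7.39 to 8.25, and Ifi27 from 6.76 to 7.24 and from 7.11 to 7.82. These 3 genes were singled out after their values were seen. PBS replicate 4 exceeded the other high arrays in all 3.

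Within the clusters, 60 relations of a tested member with the marker mean were computed, and 1 had an adjusted p under 0.05. The permutation tests shuffled arrays without regard to group, within clusters divided after the values were seen. Ifi27 on the 12 high arrays had r = 0.908 (permutation p = 7e-05, adjusted 0.0042) and rho = 0.888 (permutation p = 0.00025, adjusted 0.015), and r = 0.853 without the 2 arrays farthest from the median. On the 15 low arrays its r was 0.363 (permutation p = 0.182, adjusted 0.838) and its rho 0.364. Bst2 had r = 0.516 on the low arrays and 0.524 on the high arrays, with adjusted permutation p-values of 0.525 and 0.526. Lgals3bp had r = 0.087 and rho = -0.071 on the low arrays, and r = 0.578 on the high arrays (adjusted permutation p = 0.525). Irf9 showed no such step, at 5.93 to 6.53 on the low and 5.69 to 6.47 on the high arrays.

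**Figure D5:**
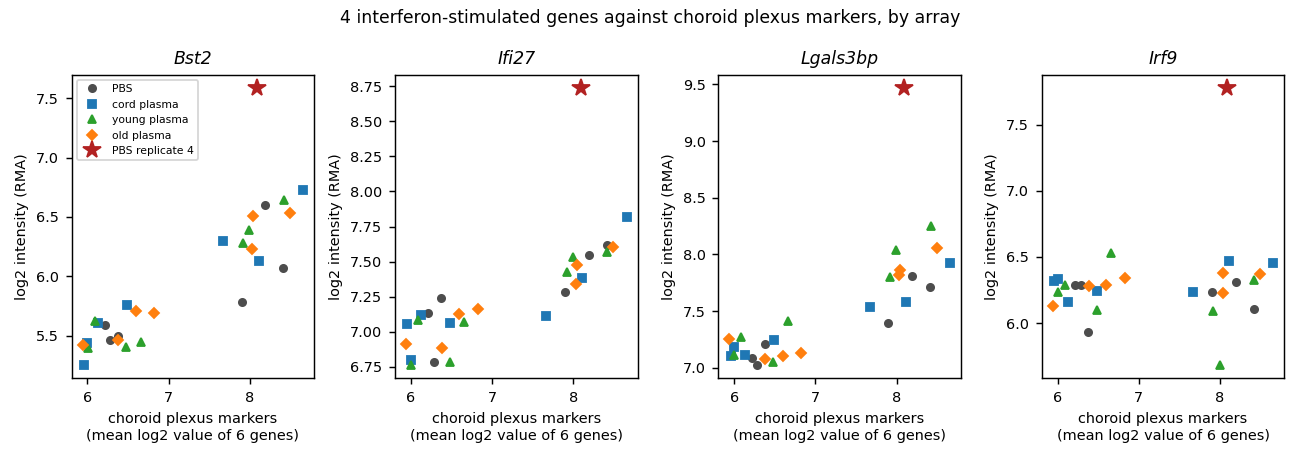
Log2 intensity of Bst2, Ifi27, Lgals3bp and Irf9 (vertical axes) against the mean log2 value of 6 choroid plexus markers (horizontal axes), 1 point per array with the group as shape and colour; the red star is PBS replicate 4. Bst2, Ifi27 and Lgals3bp are higher on the arrays with a marker mean over 7, Irf9 is not, and the star lies above all other arrays in each panel.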

How the data were processed

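RNA from hippocampus was labelled with biotin and hybridised to Affymetrix whole-transcript arrays, per the labels' protocols. The deposited value table holds log2 intensities made by the authors with RMA, per the submitters' processing notes; its version is not given in the sources used here. This method normalizes between arrays and can shrink a change common to most genes. A second deposited table gives the authors' log2 means and SDs, fold ratios and unadjusted p-values, per the file headers. Its means equalled those of the value table within 8.57e-09. The depth of an array, its signal over background, is not stated.

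Symbols came from the authors' combined name column, which restored 26 that had been turned into dates or numbers. Rows under the 30th percentile of the mean of named rows, 4.68, were left out, and the row with the highest mean stood for a symbol. Groups and replicate numbers came from the sample titles. limma 3.58.1 in R 4.3.3 fitted 1 mean per group over all 28 arrays with eBayes, with Benjamini-Hochberg adjustment over 15781 genes (threshold 0.05); SE is the moderated standard error. Each result was also computed without PBS replicate 4. The members, the further pathway and marker lists and the tests were chosen with earlier results of these data known. Per-group values are given for the 2 members of each role with the highest mean over all 28 arrays and for any with an unadjusted p under 0.01. Oasl2 is among these only through PBS replicate 4, since without that array its mean was 5.17, under the 5.21 of Oas2. Irf7, Ifi44, Isg15, Ifitm3, Bst2, Ifi27, Rtp4 and Oasl1 were singled out after their values were seen. Outside the members, the rule names genes by their gap on PBS replicate 4 and genes of the lists. One gene of the pathway lists is not reported here. Alternatives were other filters, normalizations, weights, rows, single arrays left out, a replicate block and choroid plexus markers as a covariate. Promoters are RefSeq sequences of GRCm38.p6. Permutation tests were two-sided with 100000 resamples.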

Additional observations from a re-analysis of the deposited data

Results flagged for a closer look

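In 28 of 148 pairs of a member and a group of 7 arrays, 1 array lay far from the others of its group (the gap to its neighbour was over the critical share of the range in Dixon's test); chance gives about 1 in 20. Over all symbols and groups the share was 7.52%, and PBS replicate 4 was the array apart among the PBS arrays for 0.696% of all symbols. The pairs share arrays and the members were chosen with these levels known, so the count is a description. PBS replicate 4 was that array for 22 members. These were Irf7 at 8.67, Irf9 at 7.77, Ifih1 at 6.99, Ddx58 at 6.62, Zbp1 at 5.72, Oasl2 at 7.76, Ifit1 at 8.21, Gbp2 at 6.44, and further Gbp3 at 6.26, Igtp at 5.48, Isg15 at 6.45, Usp18 at 7.85, Parp9 at 6.44, Parp14 at 6.55, Rsad2 at 5.52. The last were Cmpk2 at 8.02, Ifitm3 at 8.82, Ifi27 at 8.74, Ifi44 at 8.19, Rtp4 at 7.61, Xaf1 at 6.55 and Lgals3bp at 9.47. All are the highest PBS values of their genes.

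The other 6 pairs were spread over 5 arrays. Young plasma replicate 7 was low for Stat2 at 6.41 and for the dim Gbp3 at 3.57. Ifit3 was low on PBS replicate 2 at 6.33 and on old plasma replicate 4 at 6.01. Old plasma replicate 3 was high for Ifih1 at 6.23, and cord plasma replicate 4 was high for the dim Igtp at 4.97.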

How the results depend on the processing

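The count of members called by limma was 0 in each of the 7 comparisons under every alternative run, so these counts kept their side of the threshold. PBS replicate 4 decided the direction of the median member difference from PBS. Over the fits that each left out 1 array it ran from -0.169 to 0.067 with cord plasma, from -0.206 to 0.0241 with young plasma, from -0.207 to 0.0138 with old plasma and from -0.204 to 0.044 for the mean of the plasma groups, and the highest value was each time the fit without PBS replicate 4; the other 27 fits stayed between -0.169 and -0.117, -0.206 and -0.146, -0.207 and -0.133, and -0.204 and -0.133. Between plasma groups these fits gave 0.0236 to 0.0529 for cord against old, -0.0013 to 0.0546 for young against old and 0.0028 to 0.0566 for cord against young plasma. Both alternatives that moved the median difference from PBS and were chosen after seeing the data leave PBS replicate 4 out. Choroid plexus markers as a covariate, with PBS replicate 4 left out too, gave 0.0727, 0.0236, 0.0141 and 0.0373 for cord, young, old and mean plasma, and leaving out PBS replicate 4 with young plasma replicate 7 gave 0.067, 0.046, 0.0138 and 0.0434. With choroid plexus markers as a covariate and that array kept, the direction stayed below 0 in all 4 and 1 of 91 signs turned. The cause was not tested beyond leaving arrays out. Signs of the 91 differences of the named tested members turned in 27 cases without PBS replicate 4, in 34 without both arrays, in 8 with array weights and in 6 with renewed quantile normalization. Members highest on PBS replicate 4 numbered 27 in place of 28 with renewed quantile normalization, with centring, and with the mean over a symbol's rows. Same-numbered arrays of different groups had a mean r of 0.05 (42 pairs, r from -0.19 to 0.41, 12 over 0.1), against -0.01 for other pairs. Of the 28 arrays, 2 had their highest r with an array of their own number. The titles do not say what the numbers stand for, and whether they mark a pairing was not tested. With a replicate block the count called was 0 in each comparison and 0 of 91 signs turned. With the filter at the 50th percentile fewer members were tested, and the mean of the plasma groups has no value with the arrays of 2 groups alone. Signal over background is not in the files, so dim members such as Mx1 and Oas1a have no stated limit.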
